A study of Bubalus bubalis with 8 samples.

Results

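In buffalo oocytes and parthenogenetic embryos, 109 gene IDs varied by less than 2 log2 units from the immature oocyte to the 16-cell embryo. They were then at least 2 log2 units lower in both the morula and the blastocyst. They were chosen by these same values, out of 18220 gene IDs that carry the authors' gene numbers. A member had at least 10 FPKM (fragments scaled by transcript length and by library size) in each of the 6 libraries from GV to 16-cell. Its log2(FPKM + 1) varied by less than 2 over those 6 libraries, and both its morula and its blastocyst value were at least 2 log2 units below its 16-cell value, which is close to 4-fold for well expressed genes. For comparison, 14.2% of the 5832 numbered IDs with at least 10 FPKM in the 16-cell library were that much lower in both late libraries. Level, plateau and fall were set by the choice and are described here without a test.

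The study followed water buffalo (Bubalus bubalis) from the GV oocyte (immature, with an intact germinal vesicle) and the MII oocyte (mature, at metaphase II) through parthenogenetic embryos of 2, 4, 8 and 16 cells to the morula and the blastocyst. Parthenogenetic embryos are made in vitro by activating an egg without sperm, so all the embryos here lack a paternal genome. There was 1 library per stage and 8 in all, no stage has a replicate error, and sequencing depth is unknown because only FPKM was used. How many oocytes or embryos went into a library is not stated in the labels.

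A growing oocyte stores messenger RNA that serves the mature egg and the first cleavage divisions, when the genome is largely silent. Stored messages are removed in waves, some during maturation by machinery already in the egg and others only after the embryo begins to transcribe its own genes. In cattle, a close relative, the major activation of the embryonic genome falls at about the 8-cell to 16-cell stage. An RNA that is still abundant at the 16-cell stage can be a stored message that lasted or a new embryonic transcript, and FPKM does not separate them. FPKM is also relative to the rest of the library, so it is not an amount per embryo, and fewer cells with a transcript and less transcript per cell cannot be told apart.

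The IDs could not be paired with gene names. A search of the RefSeq table of the buffalo assembly NDDB_SH_1 matched 0 of the 109 members and 0 of all 28659 IDs. The members are therefore described by level, and 4 of them are named by ID under a rule of size. The labelled oocyte and embryo stages could not be checked against marker genes for the same reason. The libraries themselves differed: the sum of FPKM was lowest at 8 cells (892286) and highest in the morula (2501133), and 30.1% of numbered IDs were listed at 0 in the morula and 24.5% in the blastocyst, against 12.2% to 21.9% in the 6 libraries up to the 16-cell stage. The part of these differences in the members' fall was not tested.

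The members were moderately abundant oocyte transcripts whose median level hardly moved over 6 stages. The median over the 109 members was 56.9 FPKM in GV, 53.9 in MII, 69.7 at 2 cells, 63.2 at 4 cells, 68.7 at 8 cells and 56.1 at 16 cells. The median member then had 5.91 FPKM in the morula and 3.95 FPKM in the blastocyst. Among numbered IDs, the median member stood at percentile 85.2 in GV, 87.6 at 16 cells, 62.6 in the morula and 55.5 in the blastocyst. Before the morula, the lowest member value was 10.1 FPKM, in the 8-cell library, and the highest was 2745 FPKM, in the 2-cell library.

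**Figure D1:**
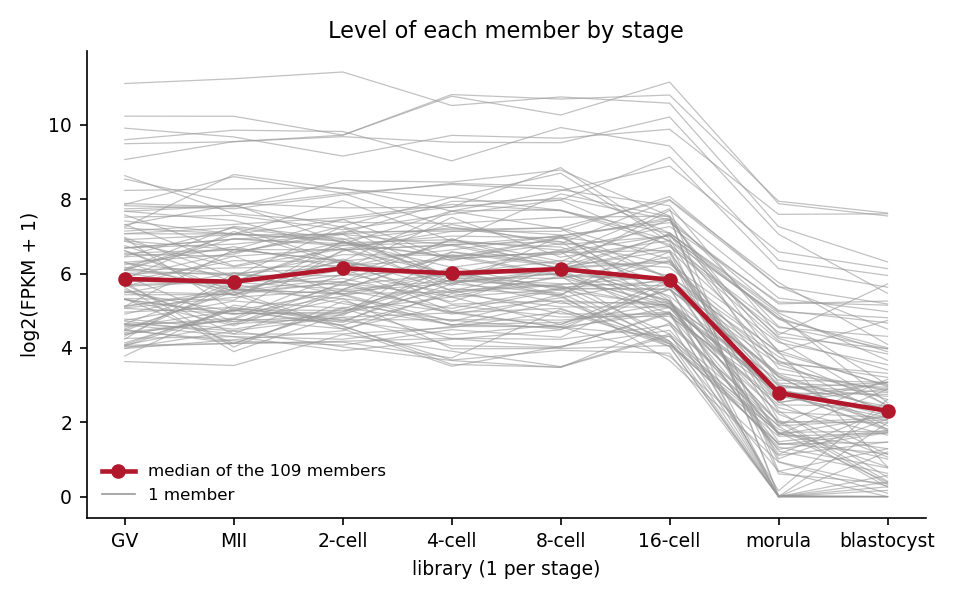
Level of each of the 109 members, as log2(FPKM + 1), in the 8 libraries in stage order. Each grey line is 1 member and the red line joins the medians. The line of medians runs level to the 16-cell library, single members vary around it within the limit of the rule, and all end lower in the morula and blastocyst.

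All members together held a small part of each library. Their share of the FPKM sum was 1.27% in the GV oocyte, 1.41% in MII, 1.70% at 2 cells, 1.68% at 4 cells, 1.87% at 8 cells and 1.48% at 16 cells. After that they held 0.0867% of the morula sum and 0.0695% of the blastocyst sum. The 5 most abundant members carried 40.3% of the members' FPKM in GV, 45.0% at 16 cells and 46.6% in the blastocyst. A median of 100 FPKM or more over the first 6 libraries was reached by 37 of the 109 members, and 24 had a median under 30 FPKM.

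The most abundant member had 2214 FPKM in GV, 2420 in MII, 2745 at 2 cells, 1468 at 4 cells, 1723 at 8 cells, 1533 at 16 cells, 153 in the morula and 78.5 in the blastocyst. It was highest up to the 2-cell stage, and each of its 2 last values was far below the other 6. The second had 720.0 FPKM in GV, 746 in MII, 844 at 2 cells, 1802 at 4 cells, 1656 at 8 cells, 1786 at 16 cells, 246 in the morula and 197 in the blastocyst. Its plateau was thus in 2 levels, lower up to the 2-cell stage and higher from 4 to 16 cells. The third had 1204 FPKM in GV, 1201 in MII, 845 at 2 cells, 1747 at 4 cells, 1230 at 8 cells, 2275 at 16 cells, 234 in the morula and 186 in the blastocyst, and was highest in the last library before its fall.

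After the 16-cell stage most members were reduced rather than gone. The median difference from the 16-cell library was -2.81 log2 units in the morula (interquartile range over members -3.81 to -2.31) and -3.42 log2 units in the blastocyst (-4.09 to -2.76). As a percentage of the 16-cell FPKM, the median member had 11.7% in the morula and 7.98% in the blastocyst, with highest values of 24.3% and 22.9%. Of the 109 members, 82 were at 1 FPKM or more in both late libraries, 14 were under 1 FPKM in both, 4 in the morula alone and 9 in the blastocyst alone. Both late values were 10 FPKM or more for 26 members. A fall of at least 3 log2 units in both libraries was seen in 38 members, and one of at least 4 in 16. Of the 5832 numbered IDs at 10 FPKM or more in the 16-cell library, 417 (7.15%) and 198 (3.40%) passed these sizes. Most of the 5832 did not fall by 2 log2 units in both libraries, which every member was chosen to do. The like base is the 831 that did, members included, and deeper falls were a smaller part of the members than of these 831.

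**Figure D2:**
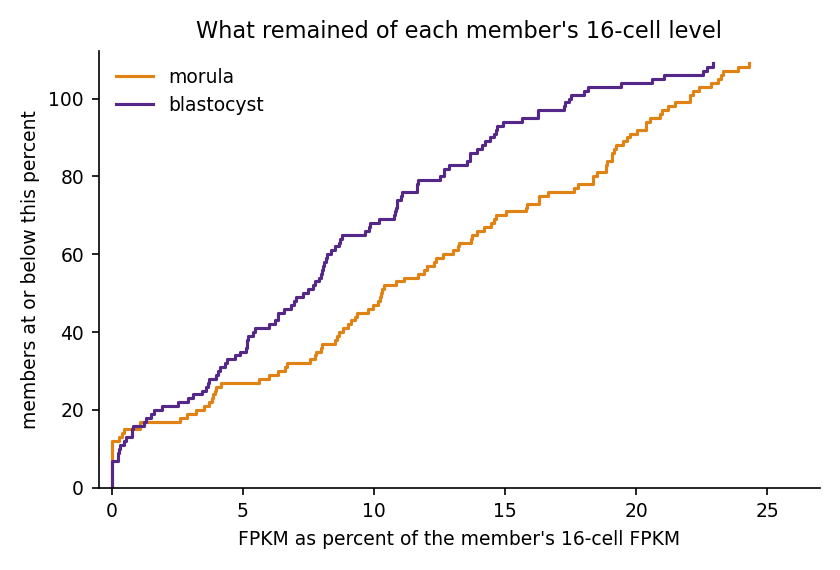
Cumulative number of members (vertical axis) whose FPKM was at or below a given percentage of their own 16-cell FPKM (horizontal axis), with 1 curve for each late library. The medians are 11.7% in the morula and 7.98% in the blastocyst, and the blastocyst curve lies mostly to the left of the morula curve.

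In the morula 11 members (10.1%) were listed at 0, in the blastocyst 5 (4.59%), and 4 in both. The 14 members under 1 FPKM in both late libraries included strong and weak ones. Their median was 72.0 FPKM in GV, 66.2 in MII, 95.1 at 2 cells, 61.0 at 4 cells, 74.1 at 8 cells and 38.5 at 16 cells, and 8 of them were in the upper 55 members by level against 6 in the lower 54. The 26 members that stayed at 10 FPKM or more in both had a median of 186 FPKM in GV, 180 in MII, 175 at 2 cells, 213 at 4 cells, 230 at 8 cells, 197 at 16 cells, 36.0 in the morula and 28.8 in the blastocyst. What was left in the morula had a median of 11.7% of the 16-cell FPKM for the upper 55 members and 11.2% for the lower 54. The interquartile range was wider in the upper 55 (3.95% to 19.6%) than in the lower 54 (6.63% to 16.3%). The rule limits what is left from above in both groups.

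By the smaller of a member's 2 falls, the greatest were those of gene6733 and gene3915. The first had 159 FPKM in GV, 72.7 in MII, 114 at 2 cells, 86.1 at 4 cells, 123 at 8 cells and 180 at 16 cells, and was listed at 0 in the morula and the blastocyst. The second, gene3915, had 170 FPKM in GV, 133 in MII, 248 at 2 cells, 116 at 4 cells, 282 at 8 cells and 183 at 16 cells, with 0.0239 FPKM in the morula and 0.000435 FPKM in the blastocyst. Both were thus at 72.7 FPKM or more in each of the first 6 libraries and at or next to 0 in the last 2. On the log2(FPKM + 1) scale the difference of gene3915 from its 16-cell value was -7.49 in the morula and -7.53 in the blastocyst. A member with 213 FPKM at 16 cells had a greater difference in the blastocyst alone, at -7.74, where it was listed at 0, and 0.598 FPKM in the morula.

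The blastocyst value was below the morula value for 74 members (67.9%), above it for 31 and the same for 4 that were listed at 0 in both. It was also the lower one for 76.9% of the other 1403 kept IDs and for 66.2% of all 5832 numbered IDs at 10 FPKM or more in the 16-cell library, so this direction was common to the libraries. The median difference, blastocyst minus morula, was -0.37 log2 units in the members and -0.70 in the other kept IDs, and 79 members lay within 1 log2 unit. It was lower by 1 log2 unit or more in 22 members (20.2% of the 109) and higher by that much in 8 (7.34%). Over the same 5832 numbered IDs these shares were 28.9% lower and 11.9% higher. The rule limits both late values from above, but not their order. A difference of 2 log2 units was reached downwards by 2 members and upwards by 1, against background shares of 5.85% and 4.75%. At a pseudocount of 0.1 FPKM, 32 members were lower and 13 higher by 1 log2 unit, against background shares of 31.8% lower and 13.8% higher, and 9 were lower and 5 higher by 2, against 8.02% lower and 6.31% higher.

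The 2 members with the greatest rise between the last stages were weak throughout. The first, gene27591, had 15.8 FPKM in GV, 16.4 in MII, 32.3 at 2 cells, 18.0 at 4 cells, 15.3 at 8 cells, 29.2 at 16 cells, 0.114 in the morula and 5.11 in the blastocyst. Next came gene17153, which had 21.5 FPKM in GV, 16.5 in MII, 16.8 at 2 cells, 12.3 at 4 cells, 31.9 at 8 cells and 17.0 at 16 cells, was listed at 0 in the morula and had 2.97 FPKM in the blastocyst. In both, the blastocyst value was below each of the 6 values up to the 16-cell stage, as the rule requires of every member.

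Few oocyte transcripts followed this course. Of the numbered IDs, 3562 met the level and range conditions over the 5 libraries from GV to 8-cell. Of these, 1243 (34.9%) were at least 2 log2 units lower in the 16-cell library than in the 8-cell library, 222 (6.23%) were at least 2 higher, and 1512 (42.4%) also met the conditions in the 16-cell library and are called kept. Over all numbered IDs reaching 10 FPKM in at least 1 of these 2 libraries, 1855 of 7689 (24.1%) were lower by that much. The 3562 were all at 10 FPKM or more in the 8-cell library, as were the 1855. The like base is thus the 5965 numbered IDs at that level in the 8-cell library. On it the share is 1855 of 5965, which is below 34.9% but nearer to it than to 24.1%. The members were 7.21% of the 1512 kept IDs. Of the 5832 numbered IDs at 10 FPKM or more in the 16-cell library, a larger share, 14.2%, fell by 2 log2 units in both late libraries. Another 172 kept IDs (11.4%) were at least 2 log2 units lower in the blastocyst alone, 28 (1.85%) in the morula alone, and 89 (5.89%) were at least 2 higher in both, which leaves 1114 kept IDs (73.7%) with none of these fates.

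Falls after the 16-cell stage were counted in each late library on its own. Of the 1512 kept IDs, 137 (9.06%) were at least 2 log2 units lower in the morula than in the 16-cell library and 281 (18.6%) were that much lower in the blastocyst. Among numbered IDs reaching 10 FPKM in either library compared, 15.4% of 7192 were lower in the morula and 19.1% of 7575 in the blastocyst. With at least 10 FPKM in the 16-cell library as the only condition, 18.9% of 5832 numbered IDs were lower in the morula and 24.8% in the blastocyst. Members were 79.6% of the kept IDs lower in the morula and 38.8% of those lower in the blastocyst. Over the same 5832 numbered IDs, 831 were lower in both, out of 1105 lower in the morula and 1449 lower in the blastocyst. The share for the morula is thus near that of all these IDs, and the share for the blastocyst is below it.

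**Figure D3:**
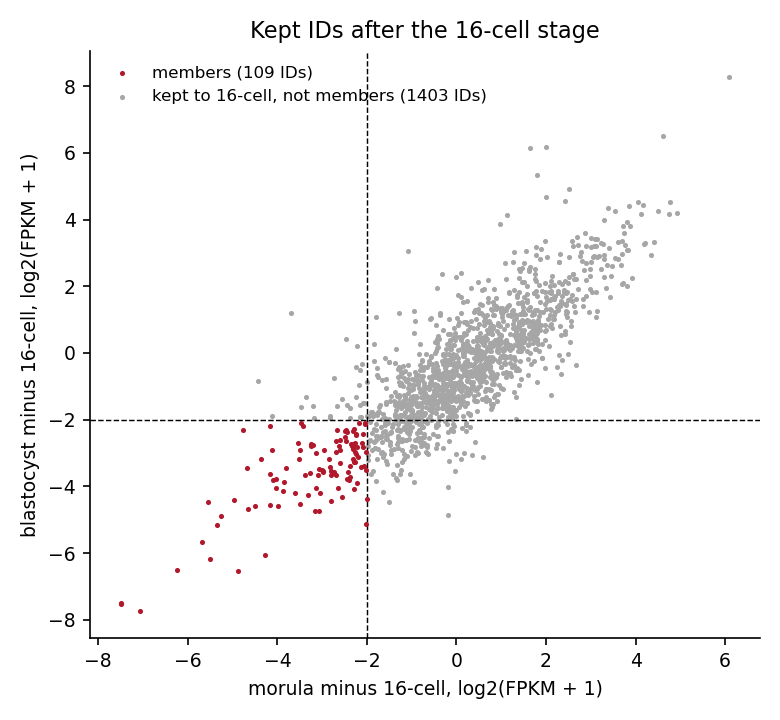
Difference from the 16-cell library for the 1512 kept IDs, in log2(FPKM + 1), with the morula on the horizontal and the blastocyst on the vertical axis. Dashed lines mark -2 on each axis. The 109 members, in red, form the lower left end of a continuous cloud, with 172 kept IDs below the horizontal line alone and 28 left of the vertical line alone.

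The members were the tail of a continuous distribution with no gap at the limit. By the smaller of its 2 falls, 46 members lay between 2 and 2.5 log2 units, while 76 kept IDs that are not members lay between 1.5 and 2. The member nearest the limit had 63.9 FPKM in GV, 46.0 in MII, 67.5 at 2 cells, 181 at 4 cells, 86.0 at 8 cells, 117 at 16 cells, 28.5 in the morula and 4.74 in the blastocyst. Just outside, at -1.98, the nearest kept ID had 20.7 FPKM in GV, 22.8 in MII, 41.4 at 2 cells, 60.5 at 4 cells, 26.9 at 8 cells, 81.9 at 16 cells, 20.0 in the morula and 8.94 in the blastocyst. As to range, the widest member varied by 1.99 log2 units up to the 16-cell stage and the nearest ID outside by 2.00. The lowest level was 10.1 FPKM in the weakest member and 9.98 FPKM in the nearest ID outside. In all, 207 IDs failed the range condition alone and 110 the 10 FPKM condition alone.

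Up to the 8-cell stage the median level of the members was near that of IDs lower already at 16 cells and of the other kept IDs. The median in the 8-cell library was 68.7 FPKM in the members, 63.7 FPKM in the 1403 kept IDs that are not members and 66.2 FPKM in the 1243 IDs lower at 16 cells. In the 16-cell library it was 56.1 FPKM in the members, 53.6 FPKM in the other kept IDs and 7.06 FPKM in the IDs lower at 16 cells, which then had 7.12 FPKM in the morula and 7.17 FPKM in the blastocyst. The members' medians of 5.91 FPKM in the morula and 3.95 FPKM in the blastocyst were both below those of the IDs lower at 16 cells. Under 1 FPKM in the morula were 16.5% of the members, 0.285% of the other kept IDs and 25.1% of the IDs lower at 16 cells. In the blastocyst these shares were 21.1% of the members, 0.143% of the other kept IDs and 20.8% of the IDs lower at 16 cells. The members had fewer strong IDs than the last set, with 23.9% at 10 FPKM or more in the blastocyst against 43.2% of the IDs lower at 16 cells. The late values of the first 2 sets follow from the choice, and no test was made between the 3.

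**Figure D4:**
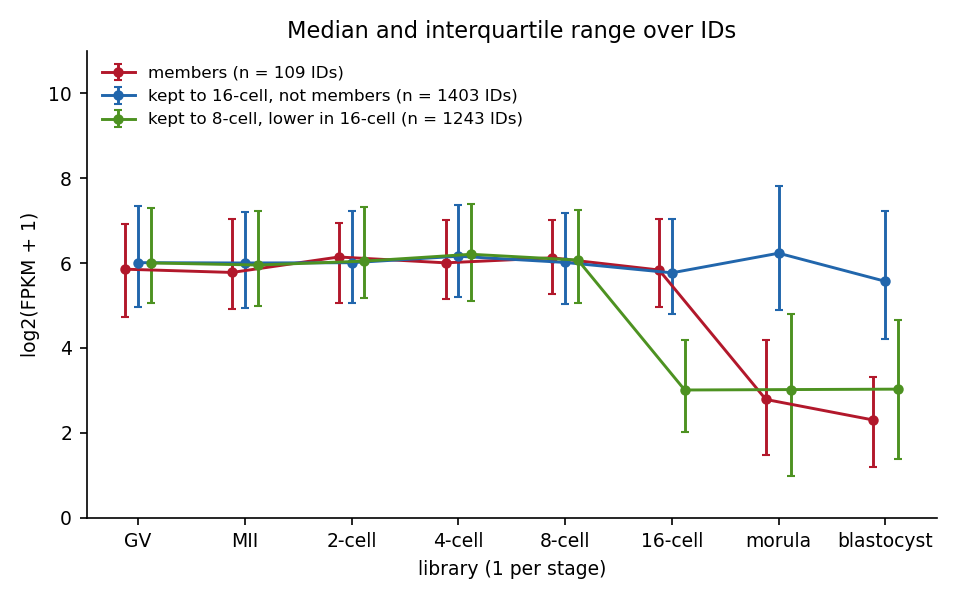
Median (points) and interquartile range over IDs (bars), as log2(FPKM + 1), in each library for the 109 members, the other 1403 kept IDs and the 1243 IDs kept to the 8-cell stage and lower at 16 cells. The 3 sets overlap to the 8-cell library, then separate at 16 cells and at the morula, and the members end with a median below that of the third set and a narrower range.

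Within the plateau the members had no common direction. The median change at each step was 0.08 log2 units from GV to MII, 0.04 from MII to 2-cell, 0.04 from 2-cell to 4-cell, 0.01 from 4-cell to 8-cell and -0.01 from 8-cell to 16-cell, and 53 to 62 of the 109 members were higher at each step. The other kept IDs had medians of 0.01, 0.01, 0.17, -0.15 and -0.22 at the same 5 steps. The 16-cell value was above the GV value by at least 1 log2 unit in 18 members (16.5%) and below it by that much in 13 (11.9%). Among the other 1403 kept IDs these shares were 12.0% above and 19.2% below. The rule measures the fall from the 16-cell value and so favours IDs that are high there. Contrasts with the other kept IDs that use this value can therefore come in part from the choice. Single members moved more than the medians, with a median range of 1.44 log2 units over the 6 libraries, and 18 members varied by less than 1.

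The 16-cell library held both ends of the plateau most or equally often. It was the highest of the 6 for 27 members (24.8%), as was the 4-cell library for 27, and the lowest for 29 (26.6%). The GV library was the highest for 11 members (10.1%) and the lowest for 25 (22.9%). Among the other kept IDs the 16-cell library was the highest for 20.6% and the lowest for 34.4%, and the GV library was the highest for 17.2% and the lowest for 17.2%. These contrasts too can come in part from the choice, which used the 16-cell value.

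**Figure D5:**
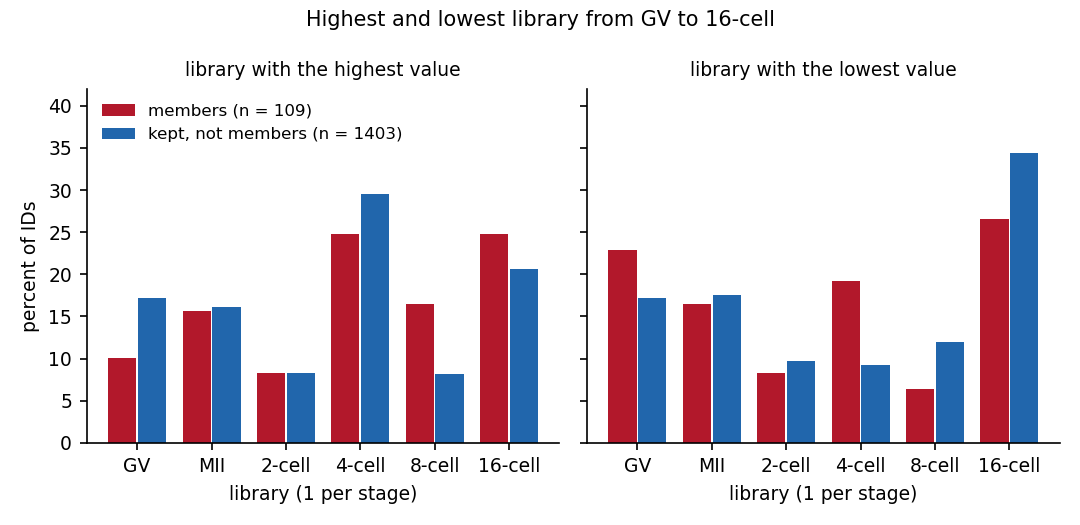
Percentage of IDs whose highest (left) or lowest (right) value from GV to 16-cell fell in each of the 6 libraries, for the 109 members in red and the other 1403 kept IDs in blue. The 16-cell library was the highest for 24.8% of members and 20.6% of the others, and the lowest for 26.6% and 34.4%. The 16-cell value was used in choosing the members.

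The size of the fall depended on the library it was measured from. The rule itself puts both late values below the lowest of the 6 earlier values in all 109. The difference from that lowest value had a median of -2.11 log2 units and was smallest at -0.31. It reached 2 log2 units for 66 of them. Measured from the 8-cell library in place of the 16-cell library, 85 of 109 were at least 2 log2 units lower in both late libraries, and measured from the GV oocyte 80 were. Among numbered IDs at 10 FPKM or more in the library measured from, 28.0% passed against the 8-cell and 29.7% against the GV library. These IDs were not chosen for a fall and the members were, so the members' higher shares follow largely from the choice. With the 16-cell library left out of the rule, and the fall counted from 8 cells, 1083 numbered IDs met it, 85 of them members. Without the morula library 281 met it, and without the blastocyst library 137. All 109 members stay in each of these by construction, since leaving out either library only removes a condition.

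The order of the members was largely kept through the fall. Across the 109 members, log2(FPKM + 1) correlated at Pearson's r = 0.83 between GV and 16-cell (Spearman's rho 0.78), at r = 0.79 between 16-cell and morula (rho 0.72) and at r = 0.90 between morula and blastocyst (rho 0.87). These coefficients are across genes that share each library and were chosen to fall within limits in it, and they are descriptions. The rule limits the earlier and late values of a member relative to its own 16-cell value. Positive coefficients with the 16-cell library therefore follow in part from the choice. In the other 1403 kept IDs the morula and the blastocyst correlated at r = 0.90.

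Rescaling the libraries to the same sum changed the size of the fall, and each scaling tried changed which IDs met the rule. Rescaled to the same sum in each library, the members' median difference from the 16-cell library was -3.60 log2 units in the morula and -3.89 in the blastocyst, and the member with the smallest fall was at -2.74 log2 units. That scaling also shifted the median of the 5832 numbered IDs at 10 FPKM or more in the 16-cell library, by -1.03 log2 units in the morula and by -0.86 in the blastocyst, so it widened the members' fall by less than the shift of all genes. Under it 264 IDs met the rule, 88 of them among the 109. Median-of-ratios scaling gave 103 IDs, 98 of them among the 109. With it the members' median differences stayed near those of the deposited values, at -2.82 in the morula and -3.35 in the blastocyst.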

How the data were processed

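One table was used, in which the authors deposited FPKM values for 28659 IDs in 8 libraries; the unit is per the file's name. The sources used here do not give the aligner, the annotation, the genome build or any filter. The labels' extraction text describes another tissue and was not relied on. Stage came from each sample's title, and columns were tied to samples by their descriptions. The 10439 IDs that the authors named as new genes were left out of the main counts, which leaves 18220 numbered IDs.

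Values were taken to log2(FPKM + 1), which understates differences of low IDs. The rule for members needs at least 10 FPKM in the 6 libraries up to the 16-cell stage, a range under 2 over them, and a fall of at least 2 from the 16-cell library to each later one. The members and lists were chosen with earlier results of these data known. With 1 library per stage, counts, medians and ranges are given with no test, and a call is a difference past a stated size. Up to 4 members are named: the 2 with the greatest smaller fall and the 2 with the greatest rise from morula to blastocyst. The members at the limits of the rule and the 3 most abundant are described without an ID, and the subsets by late level were chosen after their values were seen. Planned marker lists were not scored, as no ID matched a symbol. The alternatives were other pseudocounts, minima, ranges, falls and scalings, new-gene IDs and leaving out each library. The rule was run on simulated tables made from the GV values with random noise added and some IDs lowered in the last 2 libraries. They lacked the differences between libraries seen here, so they do not measure the rule's error in these data. Python 3.11.15, pandas 2.3.3, numpy 2.4.6, scipy 1.17.1 and matplotlib 3.10.9 were used.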

Additional observations from a re-analysis of the deposited data

How the results depend on the processing

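Of 151 values computed under the alternative settings, 28 were set apart as unable to change by construction. These were the members' shares of the library sums, and counts of kept IDs under another fall. Of the other 123, 63 stayed close to the reported one (counts within 1.5 times, medians within 0.1 log2 units) and 60 moved. The 63 include counts of members highest or lowest in GV or 16-cell at a pseudocount of 0.1 FPKM. A pseudocount keeps the order of values, so these could not change either, and the split of 63 to 60 is no measure of stability. Of 21 medians 3 changed sign, all of them steps within the plateau. Where a limit of the rule is loosened or tightened, more or fewer IDs pass by construction; for other moves the cause was not tested. The reported counts are 109 members, 1512 kept IDs, 28 lower in the morula alone, 172 lower in the blastocyst alone, 89 higher in both, 3562 IDs kept to the 8-cell stage and 1243 of these lower at 16 cells. In that order, a minimum of 30 FPKM gave 63, 866, 8, 107, 50, 2120 and 795, and a range under 1 log2 unit gave 18, 281, 3, 41, 11, 1404 and 511. With no minimum there were 219 members and 9876 kept IDs, of which 129 were lower in the morula alone, 278 lower in the blastocyst alone and 381 higher in both, and 14784 IDs were kept to the 8-cell stage. A range under 3 log2 units gave 189 members, 2510 kept IDs, and 60, 263 and 157 with the other fates. A fall of 1 log2 unit gave 295 members, 45 IDs lower in the morula alone, 295 in the blastocyst alone, 238 higher in both and 1940 lower at 16 cells, and a fall of 3 gave 38, 17, 67, 34 and 576. A minimum of 5 FPKM gave 58 IDs lower in the morula alone. Rescaling to the same sum gave 264 members, 47 IDs lower in the morula alone and 27 higher in both. New-gene IDs in place of numbered IDs gave 9 members. Leaving out the 16-cell library gave 1083 members and leaving out the morula library 281, while leaving out any other library gave 112 to 137. Leaving out a library other than the 16-cell one only removes a condition, so all 109 members then pass by construction. Without the 16-cell library 85 of the 109 passed.

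With the members held fixed, a pseudocount of 0.1 FPKM gave a median difference from the 16-cell library of -3.09 in the morula and -3.62 in the blastocyst; between the blastocyst and the morula, 13 members were then higher and 32 lower by 1 log2 unit, with 5 higher and 9 lower by 2. Rescaling to the same sum gave -3.60 in the morula and -3.89 in the blastocyst, with the smallest fall at -2.74; 5 members were then higher in the blastocyst than in the morula by 1 log2 unit and 11 lower, with 0 higher and 1 lower by 2, and the GV library was the highest for 5. The median step from 2-cell to 4-cell was -0.02 after rescaling. That from MII to 2-cell was 0.27 after rescaling and -0.068 with median-of-ratios scaling. That from 8-cell to 16-cell was -0.38 after rescaling and 0.12 with median-of-ratios scaling. These 3 small steps thus had no stable direction. The step from GV to MII stayed positive, at 0.17 after rescaling and 0.14 with median-of-ratios scaling. So did that from 4-cell to 8-cell, at 0.10 and 0.087. Median-of-ratios scaling put 2 members higher by 2 log2 units in the blastocyst. No paired analysis was possible because each stage has 1 library. Depth is unknown, so how far counting limits low values cannot be given.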

Other observations

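New-gene IDs, which the authors list apart from the numbered ones, seldom met the level condition. Of 10439 new-gene IDs, 108 had at least 10 FPKM in all 6 libraries from GV to 16-cell, against 3410 of 18220 numbered IDs. The range condition was then met by 33 of the 108 (30.6%), against 1512 of the 3410 (44.3%). Of these, 9 of 33 new-gene IDs (27.3%) and 109 of 1512 numbered IDs (7.21%) were at least 2 log2 units lower in both later libraries, a difference that was not tested. The median of the 9 was 34.8 FPKM in GV, 33.8 in MII, 40.7 at 2 cells, 33.6 at 4 cells, 35.7 at 8 cells and 30.6 at 16 cells. In the morula the median was 0.15 FPKM and the highest 4.63 FPKM, and in the blastocyst the median was listed at 0 and the highest was 3.20 FPKM.

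The 18 members with a range under 1 log2 unit up to the 16-cell stage were the flattest. Their median was 58.8 FPKM in GV, 62.5 in MII, 57.3 at 2 cells, 85.1 at 4 cells, 74.9 at 8 cells, 65.6 at 16 cells, 7.25 in the morula and 5.68 in the blastocyst. This set was picked from the same values and has no test.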
